A study of Mus musculus with 67 samples.

Results

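The transcripts of 10 antioxidant enzymes were followed through mouse preimplantation development in embryos kept in the dark and in embryos exposed to light. The members were taken by symbol from the deposited table, and all 10 of them were found among its 26414 genes: Sod1, Sod2, Cat, Gpx1, Gpx4, Prdx1, Prdx2, Txn1, Txnrd1 and Hmox1. The table holds 67 SMART-seq2 libraries of C57BL/6 embryos made by in vitro fertilization. In the light group, embryos at the 2-cell stage were exposed to 5000 lx for 6 h and were then cultured in the dark, and in the control group they were kept in the dark throughout. Each library was made from 1 cell picked by hand from a dissociated embryo. Control and light libraries numbered 7 and 6 for 2-cell embryos, 6 and 8 for 4-cell embryos, 4 and 8 for 8-cell embryos, 13 and 6 for morulae, and 3 and 6 for blastocysts. The titles number the embryos, but neither the parents nor the day is given, so the p-values measure the spread between libraries. Y-linked genes summed to at least 10 CPM (counts scaled to an equal total per library) in 0 of 13 control and 1 of 6 light morula libraries, 0 of 3 control and 6 of 6 light blastocyst libraries, 0 of 4 and 3 of 8 at the 8-cell stage, 4 of 6 and 8 of 8 at the 4-cell stage, and 3 of 7 and 2 of 6 at the 2-cell stage. How many embryos stand behind a group was not tested.

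These enzymes remove reactive oxygen species in steps. Superoxide dismutases turn superoxide into hydrogen peroxide, which catalase, glutathione peroxidases and peroxiredoxins then reduce, and thioredoxin with its reductase returns oxidized peroxiredoxins to their working form. Heme oxygenase 1 breaks down heme and is a classical stress-inducible gene of the NRF2 and BACH1 pathway. Early embryos carry stores of maternal RNA from the oocyte, most of which is degraded around the 2-cell stage while the embryo's own genome becomes active.

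The coding sequences of the members were read from the GENCODE M21 transcripts (GRCm38), and 3 of the 10 carried a TGA codon in frame before the final stop codon, annotated as selenocysteine, the residue at the active site of these enzymes. They are shown here because Gpx1, Gpx4 and Txnrd1 are the selenoproteins among the members and each was called in a step between stages. The TGA is in capitals, with up to 18 coding bases on each side, and it is codon 47 of Gpx1, codon 73 of Gpx4 and codon 498 of Txnrd1 counted from the start codon.
Gpx1: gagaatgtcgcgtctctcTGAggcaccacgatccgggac
Gpx4: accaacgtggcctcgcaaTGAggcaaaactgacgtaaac
Txnrd1: atcctccagtctggctgcTGAggttaa
In Txnrd1 the codon lay next to the end of the coding sequence, whereas in both glutathione peroxidases it lay well inside it.

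Promoters of RefSeq (GRCm38.p6, 250 bases before to 50 bases after each start) were matched for 9 of the 10 members, with 14 promoters in all. They were searched on both strands for TGACNNNGC, the core of the antioxidant response element that NRF2 recognizes, since several members are known targets of NRF2. It was present in 12.39% of all 32851 promoters and in 3 of the 14 member promoters, those of Prdx1, Txnrd1 and Sod1. Coordinates here and for the genes further on are those of GRCm38. The windows are written on the strand of the gene, with the match, which in each case reads on the opposite strand, in capitals.
Prdx1, chr4:116685450-116685490, plus strand, 133 bases before the start: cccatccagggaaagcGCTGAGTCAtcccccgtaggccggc
Txnrd1, chr10:82859098-82859138, plus strand, 92 bases before 1 of the 3 listed starts: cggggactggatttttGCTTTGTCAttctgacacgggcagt
Sod1, chr16:90220690-90220730, plus strand, 56 bases before the start: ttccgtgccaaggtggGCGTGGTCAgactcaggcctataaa
A match of these letters describes the sequence and shows no binding. Of the 3 genes, Txnrd1 was called between light and control at the 2-cell stage, and Prdx1 and Sod1 were called at no stage.

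Total reads per library lay between 836010 and 8551673, of which 54.0% to 89.3% fell on CT010467.1 and Gm42418, a pair of ribosomal RNA-type genes, and between 318176 and 2867032 reads remained. A deposited value is a read number over a scaling factor that is shared by all genes of a library, so that 3 reads corresponded to a value between 0.797 and 11.7. Values are not divided by gene length. The ratio of Gm42418 to CT010467.1 differed between the groups at the 4 stages before the blastocyst, for example 3.00 ± 0.668 (SD, n = 7) in control and 1.65 ± 0.0697 (SD, n = 6) in light at the 2-cell stage (exact permutation test, two-sided p = 0.00117). A difference of library preparation and an effect of light cannot be told apart for any light comparison at those stages. The control libraries differed in this ratio between stages too, with 2.70 ± 1.37, 2.21 ± 0.146, 3.22 ± 0.608 and 1.43 ± 0.0139 (SD, n = 6, 4, 13 and 3) from 4-cell embryos to blastocysts, and the light libraries averaged between 1.43 and 1.65. The control 8-cell libraries, with ratios up to 2.34385, all lay below the control morula libraries, with ratios from 2.3439. The control 2-cell libraries had ratios from 2.34 to 4.03 and the control 8-cell libraries from 2.01 to 2.34385. No control 4-cell library lay within either range, some being below and some above. Preparation and stage therefore cannot be told apart for any of the 4 control steps, including those from 2-cell to 4-cell and from 4-cell to 8-cell. Nor can preparation and light be told apart for the tests between steps. At the blastocyst stage the ratio was 1.43 ± 0.0139 (SD, n = 3) and 1.43 ± 0.162 (SD, n = 6, exact permutation test, two-sided p = 0.690). Control 4-cell replicate 3 had a ratio of 1.61, whereas the light 4-cell libraries averaged 1.54 ± 0.0753. Control 4-cell replicates 4, 5 and 6 had 1.89, 1.98 and 1.80, and replicates 1 and 2 had 4.55 and 4.35. Results that turn on replicate 3 are given with and without it, but leaving it out does not remove this split of the control group.

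**Figure D1:**
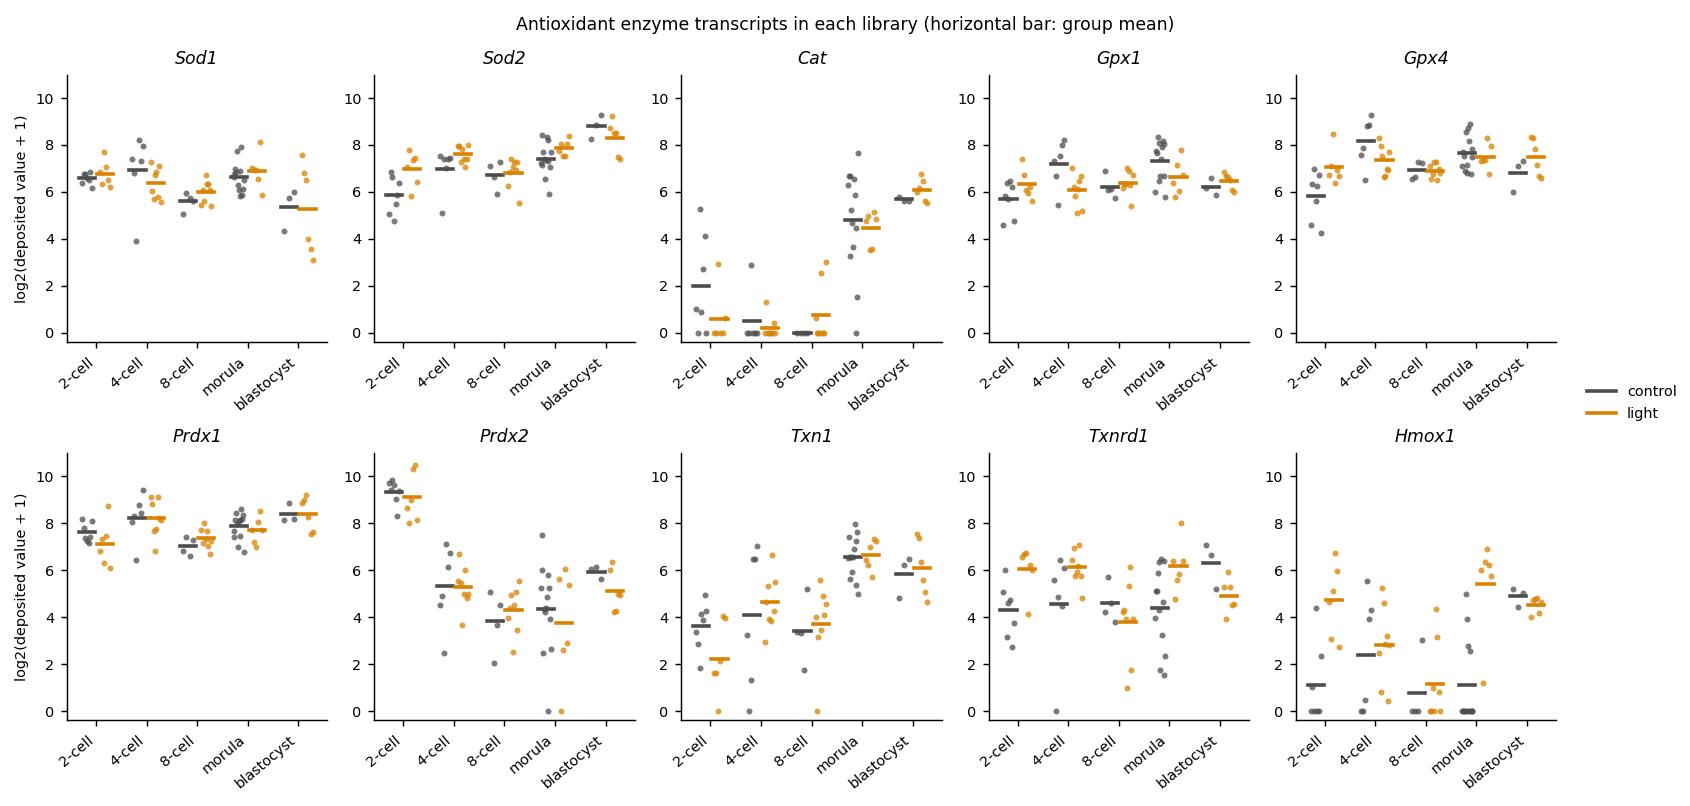
Log2 of the deposited value plus 1 (vertical axis) for the 10 enzymes in each of the 67 libraries, by stage (horizontal axis), with control in grey and light in orange. Points are libraries and bars are group means. Prdx2 falls after the 2-cell stage, Cat is higher from the morula stage, Txn1 is higher in morulae than in 8-cell embryos, and Hmox1 is higher in light libraries at the 2-cell and morula stages.

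The embryos changed which antioxidant transcripts led as they developed. Per kilobase of the principal transcript, Prdx2 had the highest group mean of the 10 at the 2-cell stage, 453 in control and 464 in light (deposited value per kb). Prdx1 followed there with 231 in control, then Sod1 with 149.8 and Gpx4 with 70.5. From the 4-cell stage on Prdx1 was first in both groups, with 405, 151, 282 and 396 per kb in the control group from the 4-cell to the blastocyst stage. Gpx4 was second in the control group from the 4-cell stage on, with 354 ± 207 per kb at the 4-cell stage, within the spread of Prdx1 (405 ± 225) and of Sod1 (258 ± 156, SD, n = 6). In the control group Cat and Hmox1 were the lowest pair at the 2-cell, 4-cell and 8-cell stages, at 0 and 1.13 per kb in control 8-cell libraries. The order rests on the transcript chosen. Per kilobase of all annotated exons, Gpx4 rather than Prdx1 was first at the control 4-cell, 8-cell and morula stages. It was also first at the light 8-cell and morula stages.

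Light and control were compared at each stage on log2(value + 1) with limma, and a gene was called when its adjusted p was under 0.05 and it changed at least 2-fold. At the 2-cell stage, Hmox1 and Txnrd1 were called higher in light, 2 of 10 members, where 5.53% of all genes tested were called higher and 10.5% in either direction. Neither at the 4-cell nor at the 8-cell stage was a member called, 0 of 9 tested at each, with 1.45% and 9.21% of all genes called. At the 4-cell stage 3 of the 9 had an unadjusted p under 0.05, edgeR called 0 and DESeq2 called 1, Gpx1, while at the 8-cell stage all of these counts were 0. In morulae only Hmox1 was called, higher in light, 1 of 10 members against 0.355% of all genes called higher and 1.18% in either direction. In blastocysts 0 of 10 members were called, against 5.34% of all genes, with 1 at an unadjusted p under 0.05, 0 called by edgeR and 2 by DESeq2 (Gpx4 and Cat). The median log2 fold change of the members was 0.41 at the 2-cell stage and -0.047 in blastocysts, where that of all genes was 0.00025 and -0.64. The share of blastocyst calls with the lower value in light was 93.4% as deposited and 54.5% with median ratio scaling. For 0 of 10 members did the light and control libraries of a stage separate without overlap, where 4.15%, 0.560%, 5.61%, 0.552% and 12.5% of all genes did in stage order.

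**Figure D2:**
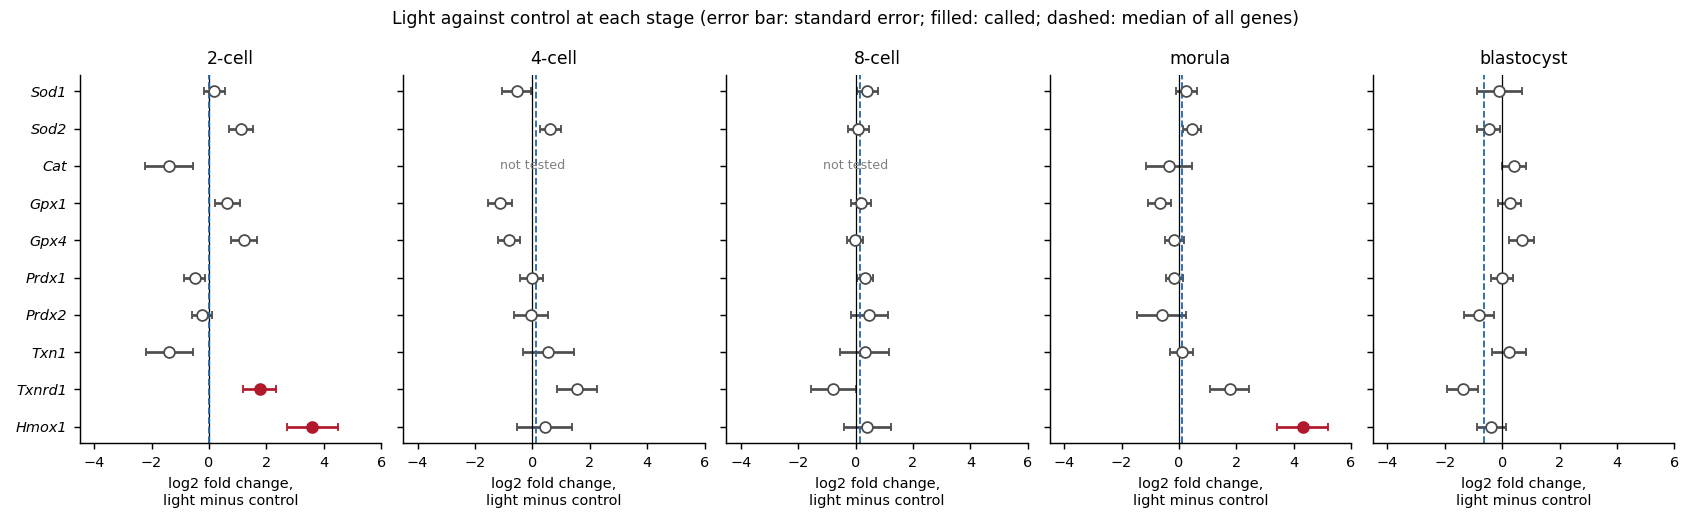
Log2 fold change of light minus control (horizontal axis) for each enzyme (vertical axis) at the 5 stages, with standard errors from limma. Filled points are called and dashed lines mark the median of all genes tested. Hmox1 at the 2-cell and morula stages and Txnrd1 at the 2-cell stage are filled, and Cat was not tested at the 4-cell and 8-cell stages.

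Hmox1 (chr8:75093621-75100589, plus strand), the inducible heme oxygenase, showed the largest light difference of the 10 at the 2-cell and morula stages. In control 2-cell libraries its values were 0, 0, 0, 0, 1.04, 4.14 and 20.0. In light 2-cell libraries they were 5.67, 7.43, 23.8, 33.5, 62.2 and 105. All 6 light libraries lay above the control median and 4 of 6 above every control library, and the groups overlapped through control replicate 17 (20.0) and light replicates 9 and 12. The group means were 3.60 ± 7.39 (SD, n = 7) and 39.6 ± 38.1 (SD, n = 6), a log2 fold change of 3.60 ± 0.90 (SE, adjusted p = 0.00827). Leaving out any 1 library kept the call, with log2 fold changes between 3.20 and 4.15. Oocyte and maternal transcripts moved with this comparison: the 11 listed genes summed to 3950.1 to 9159 in control and 1436 to 4203 in light 2-cell libraries, and 4 of 11 were called lower. The 7 cumulus cell genes in the table summed to 32.4 to 116 and 90.5 to 202, with Inha at 0 in every 2-cell library. Their part in the 2-cell differences of Hmox1 and the other members was not tested.

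Hmox1 was not called between light and control at the 4-cell, 8-cell and blastocyst stages. At the 4-cell stage control libraries ranged from 0 to 45.0 (median 7.36) and light libraries from 0.353 to 36.8 (median 6.17), a log2 fold change of 0.43 ± 0.97 (SE, adjusted p = 0.865). In control 8-cell libraries 3 of 4 were at 0 and the other at 7.09, and light 8-cell libraries ranged from 0 to 19.3 (median 0.387). Of the 13 control morula libraries 9 were at 0, where 3 reads would have been a value between 1.57 and 3.16, and the highest was 30.9. The 6 light morula libraries had 1.26, 53.3, 63.7, 74.7, 81.1 and 119, so that 5 of 6 lay above every control library and replicate 1 lay within the control range. The log2 fold change in morulae was 4.31 ± 0.89 (SE, adjusted p = 0.00988), between 4.02 and 5.16 when any 1 library was left out, and the call was lost with DESeq2 (3.88, adjusted p = 0.181). Blood genes summed to 0 to 20.5 in control and 1.75 to 17.0 in light morula libraries over the 4 of 6 listed genes in the table. Of the 3 tested, Cd68, a macrophage gene, was called higher in light (0 to 6.43, median 0, in control and 0.787 to 12.1, median 5.95, in light, log2 fold change 2.31, adjusted p = 0.0206). The hemoglobin gene Hbb-bs was at 0 in all of these libraries, Hba-a1 in 11 of 13 control and 5 of 6 light ones, and Alas2 in 11 of 13 and 4 of 6, and the part of these genes in the Hmox1 difference was not tested. In blastocysts control libraries had 20.9, 32.1 and 36.3 and light libraries ranged from 15.1 to 27.5 (median 24.8), with overlapping groups and a log2 fold change of -0.38 ± 0.51 (SE, adjusted p = 0.688).

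Between neighbouring stages Hmox1 was called at 1 step in control and at 2 in light. In control embryos it was called higher from morula to blastocyst, with a log2 fold change of 3.81 ± 1.05 (SE, adjusted p = 0.0171), a call that was lost with edgeR (adjusted p = 0.262) and without any 1 of the 3 control blastocyst libraries (adjusted p up to 0.0811). In light embryos it was called lower from the 2-cell to the 4-cell stage, with a log2 fold change of -1.91 ± 0.75 (SE, adjusted p = 0.0445), and higher from the 8-cell to the morula stage, with a log2 fold change of 4.24 ± 0.85 (SE, adjusted p = 0.00115). The former call was lost in 10 of 14 fits without 1 library and under each of the 4 other settings tried (adjusted p from 0.0631 to 0.149), and the latter was kept in all of them. The difference between the groups in these changes was itself tested and was not called: it was 3.90 ± 1.35 (SE, adjusted p = 0.123) from 8-cell to morula and -4.69 ± 1.32 (SE, adjusted p = 0.0603) from morula to blastocyst. Without light morula replicate 1 both passed, with adjusted p = 0.0288 and 0.00901. The latter also passed without control morula replicate 18, 1, 21 or 26 (adjusted p = 0.0243, 0.0410, 0.0483 and 0.0486).

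Txnrd1 (chr10:82833951-82897712, plus strand), the cytosolic reductase that regenerates thioredoxin with NADPH, was the other member called at the 2-cell stage. Control 2-cell libraries had 5.55, 7.83, 12.4, 23.5, 25.7, 32.3 and 63.6. Light 2-cell libraries had 16.7, 62.9, 73.8, 93.9, 101 and 104. Light replicate 15 lay among the controls, and 4 of the other 5 light libraries lay above every control library, the highest of which was replicate 11. The means were 24.4 ± 19.9 (SD, n = 7) and 75.4 ± 32.9 (SD, n = 6), with a log2 fold change of 1.76 ± 0.57 (SE, adjusted p = 0.0422). This call was close to the threshold and was lost in 8 of 13 fits without 1 library (control replicates 8, 9 and 12 and light replicates 9, 10, 12, 14 and 16, adjusted p up to 0.104), and with a pseudocount of 0.1, no filter or 1 fit over all libraries (adjusted p = 0.0551, 0.0660 and 0.0907). In 4-cell embryos 7 of 8 light libraries lay above the control median, with control from 0 to 85.1 (median 37.5) and light from 27.4 to 135 (median 65.8), and the log2 fold change was 1.55 ± 0.69 (SE, adjusted p = 0.233). In morulae all 6 light libraries lay above the control median, with 34.7 ± 32.1 (SD, n = 13) in control and 92.1 ± 83.9 (SD, n = 6) in light, and a log2 fold change of 1.77 ± 0.68 (SE, adjusted p = 0.190). In blastocysts the sign was the other way, with 35.3, 99.2 and 132 in control, from 14.2 to 59.2 (median 30.4) in light, and -1.38 ± 0.53 (SE, adjusted p = 0.125).

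Across stages the light embryos showed 3 called changes of Txnrd1 and the control embryos 0. In light it was lower at the 8-cell than at the 4-cell stage, with a log2 fold change of -2.31 ± 0.54 (SE, adjusted p = 0.00448), the means being 76.2 ± 36.6 (SD, n = 8) and 21.9 ± 22.2 (SD, n = 8). It was higher again in morulae, with a log2 fold change of 2.35 ± 0.63 (SE, adjusted p = 0.0130), and lower in blastocysts than in morulae, with a log2 fold change of -1.25 ± 0.46 (SE, adjusted p = 0.04998). The first was lost with median ratio scaling (adjusted p = 0.0708) and with edgeR (-1.29, adjusted p = 0.171). The last was lost under all 4 other settings (log2 fold changes from -1.27 to -0.53, adjusted p from 0.0639 to 0.416) and in 9 of 12 fits without 1 library, and the rise from 8-cell to morula under none of these. The corresponding control changes were 0.017, -0.19 and 1.90, and none of the differences between groups was called (adjusted p = 0.249, 0.266 and 0.135).

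Txn1 (chr4:57943373-57956411, minus strand), cytosolic thioredoxin, was called higher in morulae than in 8-cell embryos in both groups. Control 8-cell libraries had 2.32, 9.05, 9.26 and 35.5, and control morula libraries ranged from 30.4 to 251 (median 93.3), a log2 fold change of 3.16 ± 0.57 (SE, adjusted p = 0.000352). Light 8-cell libraries ranged from 0 to 46.6 (median 15.5) and light morula libraries from 52.0 to 159.6 (median 105). They did not overlap, as for 1.20% of all genes (those higher in morulae), and the log2 fold change was 2.93 ± 0.59 (SE, adjusted p = 0.00119). Both calls were kept in every fit without 1 library and under the 4 other settings. In light embryos Txn1 was also called higher at the 4-cell than at the 2-cell stage, with a log2 fold change of 2.41 ± 0.69 (SE, adjusted p = 0.00632), where the means were 6.30 ± 6.94 (SD, n = 6) and 32.4 ± 29.7 (SD, n = 8). Control 4-cell libraries were split, with 0, 1.52, 8.52, 87.0, 88.1 and 128, against from 2.61 to 29.7 (median 13.8) at the 2-cell stage. In control embryos that change was 0.48 ± 1.00 (SE, adjusted p = 0.715), and the difference between groups was 1.93 ± 1.23 (SE, adjusted p = 0.412). In 2-cell embryos 3 of 7 control libraries lay above every light library and 3 of 6 light libraries below every control library, with a log2 fold change of -1.38 ± 0.82 (SE, adjusted p = 0.297). A processed copy, Txn-ps1, is also listed in the table, and reads that match both could be split between them.

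Catalase (Cat, chr2:103453849-103485160, minus strand), which breaks down hydrogen peroxide in peroxisomes, was at 0 in most 4-cell and 8-cell libraries. Its values in the control 2-cell libraries were 0, 0, 0.869, 1.04, 5.51, 16.3 and 37.8, and in light 2-cell libraries 4 of 6 were at 0 and the highest was 6.70. The groups overlapped at 0, and the log2 fold change was -1.40 ± 0.83 (SE, adjusted p = 0.293). Among 4-cell libraries 5 of 6 control and 6 of 8 light libraries were at 0. In control 8-cell embryos all 4 libraries had 0 reads, which allows up to 3 reads over the group or 0.751 CPM of the 3992701 reads outside the ribosomal genes, for counting error only. In the 13 control morula libraries together it was 83.3 CPM, 111 times that limit, and the step had an adjusted p of 0.00163 in limma. The control morula libraries ranged widely, from 0 to 199.9 (median 36.6), while the light ones had 10.6, 10.9, 26.2, 27.9, 30.3 and 34.5. From 8-cell to morula the light libraries separated without overlap, as for 1.20% of all genes, with a log2 fold change of 3.70 ± 0.67 (SE, adjusted p = 0.000429), and again from morula to blastocyst, as for 1.81% of all genes, with a log2 fold change of 1.62 ± 0.43 (SE, adjusted p = 0.00621). In blastocysts control libraries had 48.0, 48.2 and 54.7 and light libraries ranged from 45.8 to 109 (median 66.6), with 4 of 6 above and 2 of 6 below all controls.

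Sod1 (chr16:90220754-90226329, plus strand), the copper and zinc superoxide dismutase of the cytosol, was called between light and control at no stage. Control 2-cell libraries ranged from 71.0 to 115 (median 96.5) and light libraries from 73.1 to 208 (median 101), and the log2 fold change was 0.19 ± 0.35 (SE, adjusted p = 0.782). At the later stages it lay between -0.54 and 0.41 with adjusted p of at least 0.516. In light embryos Sod1 was called lower in blastocysts than in morulae, with a log2 fold change of -1.64 ± 0.55 (SE, adjusted p = 0.0315), with means of 134 ± 76.7 (SD, n = 6) and 70.8 ± 73.0 (SD, n = 6). The call was lost with median ratio scaling (-0.93, adjusted p = 0.206), under each of the 3 other settings (adjusted p from 0.0545 to 0.695) and without light morula replicate 6 or light blastocyst replicate 24, 26 or 29 (adjusted p up to 0.114). The 6 light blastocyst libraries fell on both sides of the controls, 3 above all and 3 below all of them.

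Sod2 (chr17:13006846-13040063, plus strand), the manganese superoxide dismutase of mitochondria, reached its highest control mean in blastocysts. The control means were 64.4 ± 33.5, 142 ± 56.3, 111 ± 41.7, 188 ± 85.1 and 461 ± 157 in stage order (SD, n = 7, 6, 4, 13 and 3). The step from morula to blastocyst was called in control, with a log2 fold change of 1.38 ± 0.44 (SE, adjusted p = 0.0392), but not without control morula replicate 6 or 12 or any 1 control blastocyst library (adjusted p up to 0.260). In light the step from 8-cell to morula was called, with a log2 fold change of 1.05 ± 0.28 (SE, adjusted p = 0.0136). The 8 light 8-cell libraries, from 44.9 to 168 (median 126), lay below all 6 light morula libraries, from 184 to 328 (median 236), as for 1.20% of all genes. Without light 8-cell replicate 9 or 10 or light morula replicate 9 that change no longer passed, its lowest log2 fold change being 0.87. In 2-cell embryos 4 of 6 light libraries lay above every control library, with control from 26.1 to 113 (median 57.1) and light from 55.3 to 217 (median 147), and the log2 fold change was 1.12 ± 0.43 (SE, adjusted p = 0.0864). It passed the threshold with DESeq2 (1.11, adjusted p = 0.0330), with 1 fit over all libraries (limma adjusted p = 0.0286) and without light replicate 14 (limma adjusted p = 0.0474).

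The selenium-dependent glutathione peroxidases rose together after the 2-cell stage in control embryos. Gpx1 (chr9:108338903-108340343, plus strand) reduces hydrogen peroxide, and Gpx4 (chr10:80047166-80056439, plus strand) reduces lipid peroxides in membranes. Gpx4 in control 2-cell libraries was 17.9, 22.9, 47.8, 76.3, 79.2, 104 and 125, and in control 4-cell libraries 90.5, 189, 233, 449.7, 463 and 611. Of the 4-cell libraries 5 of 6 lay above every 2-cell library, and the exception was control 4-cell replicate 3. The log2 fold change was 2.33 ± 0.53 (SE, adjusted p = 0.00105) for Gpx4 and 1.495 ± 0.50 (SE, adjusted p = 0.0180) for Gpx1, whose means were 56.8 ± 25.4 (SD, n = 7) and 173 ± 94.9 (SD, n = 6). Both calls were kept in all 13 fits without 1 library and under the 4 other settings. Control 4-cell replicates 1 and 2, with the highest ratios of Gm42418 to CT010467.1, had 189 and 233 for Gpx4 and 157 and 100 for Gpx1. Replicates 4, 5 and 6 had 449.7, 463 and 611 for Gpx4 and 185, 258 and 296 for Gpx1. Replicate 3, with the lowest ratio, had 90.5 and 43.0. The part of this split in the step from the 2-cell to the 4-cell stage was not tested. In light embryos the same step was 0.30 ± 0.34 (SE, adjusted p = 0.514) for Gpx4 and -0.25 ± 0.38 (SE, adjusted p = 0.626) for Gpx1.

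The test of that difference between groups did not reach the threshold, with -2.03 ± 0.64 (SE, adjusted p = 0.0677) for Gpx4 and -1.75 ± 0.63 (SE, adjusted p = 0.112) for Gpx1. Without control 4-cell replicate 3 it passed for both, with -2.36 (adjusted p = 0.0221) and -2.10 (adjusted p = 0.0339), and for Gpx4 it passed also without control 2-cell replicate 12 (-2.23, adjusted p = 0.0414) and with edgeR on all libraries (-1.95, adjusted p = 0.0280). Light minus control had opposite signs at the 2 stages. At the 2-cell stage all 6 light libraries exceeded the control median of Gpx4, light ranging from 81.8 to 354 (median 113), and the log2 fold change of light minus control was 1.23 ± 0.46 (SE, adjusted p = 0.0796). In 4-cell embryos none of the 8 light libraries exceeded the control median of either gene, and the log2 fold changes were -0.81 ± 0.39 (SE, adjusted p = 0.276) for Gpx4 and -1.12 ± 0.43 (SE, adjusted p = 0.170) for Gpx1. Gpx1 at the 4-cell stage was called lower in light without control replicate 3 (-1.47, adjusted p = 0.0283), and the Gpx4 difference at the 2-cell stage was called with DESeq2 (adjusted p = 0.0480), with CPM outside the ribosomal genes (adjusted p = 0.0465), with 1 fit over all libraries (limma adjusted p = 0.0260) and without control replicate 12 (limma adjusted p = 0.0435).

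In blastocysts the call of Gpx4 changed with the scaling. Control libraries had 62.6, 137 and 159.9 and light libraries 95.7, 102, 143, 228, 314 and 321, so that 3 of 6 light libraries lay above all controls. On the deposited scale the log2 fold change was 0.67 ± 0.45 (SE, adjusted p = 0.369). Median ratio scaling gave 1.34 (adjusted p = 0.0410), CPM outside the ribosomal genes gave 1.45 (adjusted p = 0.0345), quantile normalization gave 1.33 (adjusted p = 0.0348) and DESeq2 gave 1.38 (adjusted p = 0.00942), all higher in light. On the deposited scale, 7 of 10 markers of the inner cell mass were called lower in light at the same stage. Of all genes 5.34% were called there, 93.4% of these calls being lower. The inner cell mass markers summed to 307 to 2307 in control and 148 to 209.7 in light. The 9 primitive endoderm markers summed to 494 to 915 in control and 295 to 447 in light. Of the 12 trophectoderm markers 0 were called. The marker calls were not repeated with other scalings. A change of cell type among the picked cells and a change of level per cell cannot be told apart in the blastocyst comparison of any member. Y-linked reads split the groups there as well, in 0 of 3 control and 6 of 6 light libraries, with 2 of 4 Y-linked genes called higher in light (Ddx3y, 3.55, and Eif2s3y, 3.69, on the log2 scale), so that sex of the embryos and light cannot be told apart. Gpx4-ps2, a processed copy, is also in the table and could share reads with Gpx4.

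**Figure D3:**
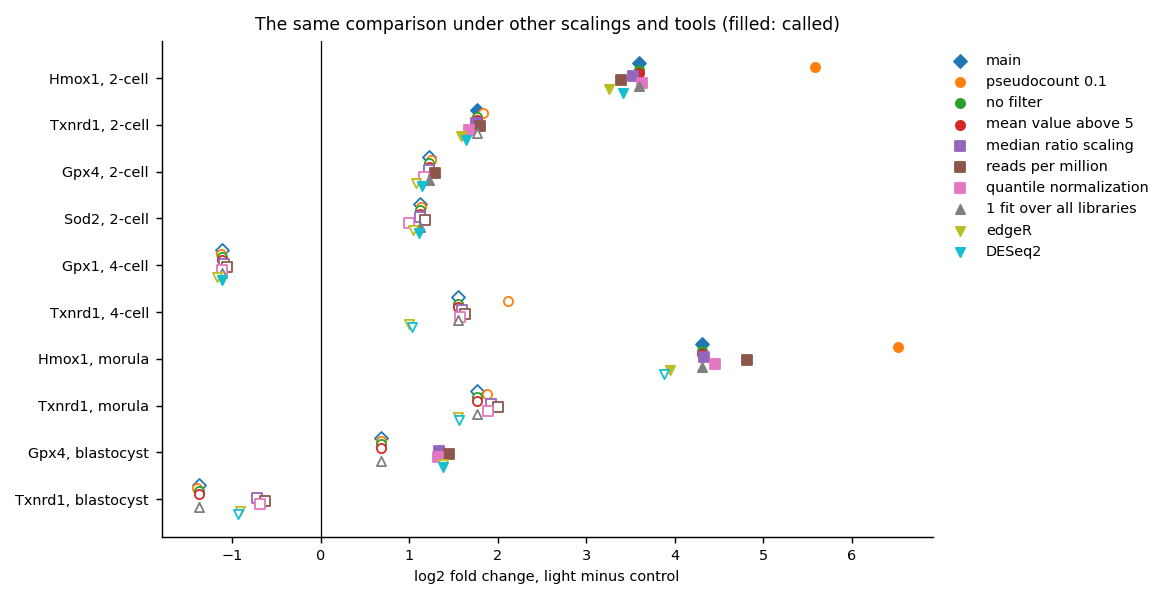
Log2 fold change of light minus control (horizontal axis) for 10 combinations of enzyme and stage (vertical axis) on the deposited scale and under 9 other scalings, filters or tools, where CPM leave out CT010467.1 and Gm42418. Filled symbols are called. Hmox1 at the 2-cell stage is called under each of these settings, and Gpx4 in blastocysts under 4 of them.

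Of the peroxiredoxins, Prdx2 (chr8:84969587-84974834, plus strand), a cytosolic thiol peroxidase, showed the steepest fall. Control libraries ranged from 319 to 916 (median 686) at the 2-cell stage and from 4.56 to 136 (median 48.9) at the 4-cell stage. Light libraries ranged from 257 to 1442 (median 456) and from 11.8 to 103 (median 36.4). In both groups every 4-cell library lay below every 2-cell library, which was so for 16.0% and 11.2% of all genes tested in control and light. The log2 fold change was -4.03 ± 0.57 (SE, adjusted p = 6.22e-06) in control and -3.84 ± 0.42 (SE, adjusted p = 4.59e-08) in light, and the difference between the groups was 0.19 ± 0.75 (SE, adjusted p = 0.926). Both calls held in every fit without 1 library and under the 4 other settings. The fall ran beside that of the oocyte and maternal transcripts, whose sum over 11 genes was 3950.1 to 9159 in control 2-cell libraries and 108 to 452 in control 4-cell libraries, and its part was not tested. Prdx2 overlaps Junb and Rnaseh2a on the opposite strand over 350 of its 3050 exon bases, and strand was not recorded by this kind of library. Their 2-cell means in control were 18.1 ± 11.4 and 61.8 ± 26.4 (SD, n = 7), against 679.5 ± 205 for Prdx2.

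Prdx1 (chr4:116685544-116700822, plus strand), its close relative and also a cytosolic thiol peroxidase, was not called lower at that step in either group. Its group means lay between 133 and 373 in all 10 groups, and its light minus control log2 fold changes lay between -0.49 and 0.34, with adjusted p of at least 0.423. In light embryos it was called higher at the 4-cell than at the 2-cell stage, with a log2 fold change of 1.09 ± 0.37 (SE, adjusted p = 0.0206), with means of 169 ± 130.4 (SD, n = 6) and 335 ± 167 (SD, n = 8). That call was lost with no filter (adjusted p = 0.0510) and without light 2-cell replicate 9 or 14 or light 4-cell replicate 6 or 11 (adjusted p up to 0.0680). The corresponding change in control was 0.62 ± 0.40 (SE, adjusted p = 0.207).

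**Figure D4:**
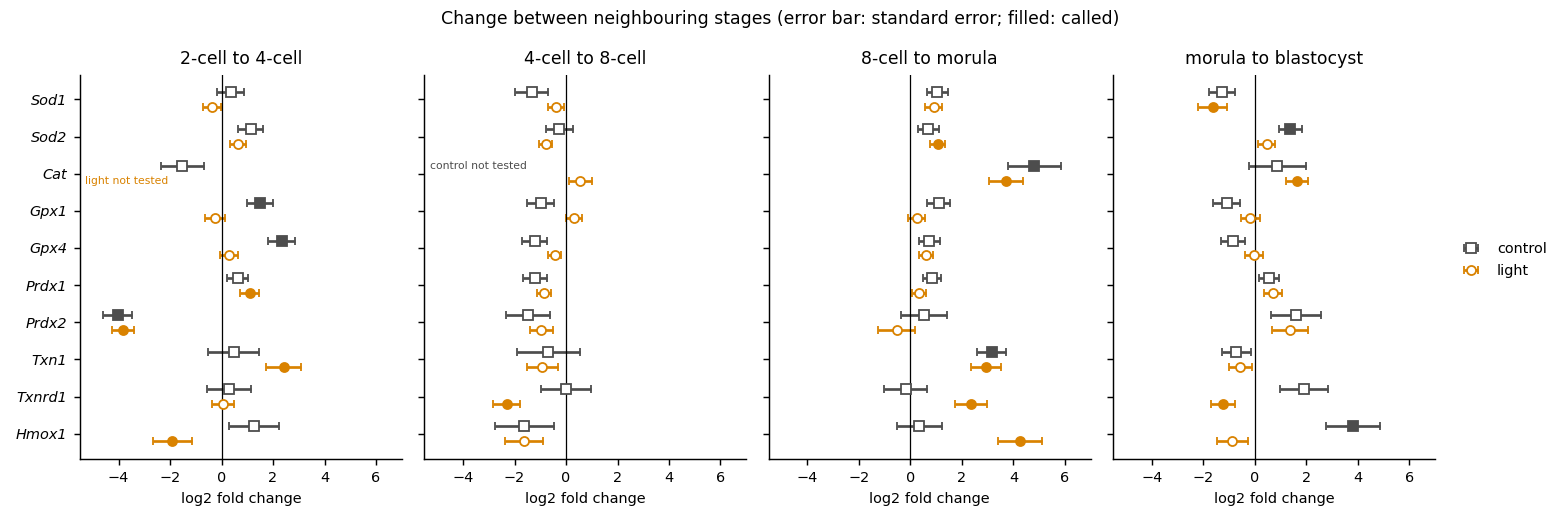
Log2 fold change between neighbouring stages (horizontal axis) for each enzyme (vertical axis), in control (grey squares) and light (orange circles), with standard errors from limma. Filled symbols are called. Prdx2 falls in both groups from the 2-cell to the 4-cell stage, and Cat and Txn1 rise in both from the 8-cell to the morula stage, where the fitted control value of Cat is taken against 4 libraries at 0.

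Counted over the steps, 3 of 10 members were called from the 2-cell to the 4-cell stage in control (2 higher, 1 lower) and 4 of 9 tested in light (2 higher, 2 lower), where 46.1% and 36.5% of all genes were called. From the 4-cell to the 8-cell stage 0 of 9 were called in control by limma, 3 at an unadjusted p under 0.05 and 0 by edgeR, and 1 of 10, Txnrd1, in light, with backgrounds of 6.31% and 10.6%. Without control 4-cell replicate 3, Sod1, Gpx4 and Prdx1 were called lower at this step in control, with log2 fold changes of -1.94, -1.54 and -1.57. These are on the deposited scale, and fits without that library were not repeated with other scalings. Over all control libraries the median log2 fold change of all genes was -0.56 as deposited and 0.040 with median ratio scaling. The share of lower calls was 81.9% and 27.0%. In light these medians were -0.45 and -0.035. From the 8-cell to the morula stage 2 of 10 were called in control and 5 of 10 in light, all of them higher, where 6.84% and 4.61% of all genes were called higher and 14.3% and 11.8% in either direction. The median log2 fold change of the members at this step was 0.79 in control and 0.98 in light, and that of all genes was 0.037 and -0.046. From morula to blastocyst 2 of 10 were called in control, both higher, and 3 of 10 in light (1 higher, 2 lower), against 11.9% and 20.7% of all genes (6.75% called higher in control). Other settings added calls at single steps. Sod2 was called higher from 2-cell to 4-cell with median ratio scaling in both groups (1.24 in control and 1.03 in light) and with edgeR in control (1.32), and in control also without 2-cell replicate 11 or 12 or 4-cell replicate 2. In light, Sod1 was called higher from 8-cell to morula (1.03 with median ratio scaling and 1.11 with edgeR, and also without 8-cell replicate 5 or morula replicate 9), and Sod2 (1.18 with both) and Prdx1 (1.44 and 1.39) from morula to blastocyst. Leaving out 1 library also added lower calls in light of Prdx1 (without 4-cell replicate 1) and Hmox1 (without 8-cell replicate 6) from 4-cell to 8-cell, and of Hmox1 (without morula replicate 1) from morula to blastocyst. Whether a step differed between light and control was tested for each member and each of the 4 steps. In limma 0 of these 40 tests were called, 9 had an unadjusted p under 0.05, and edgeR called 1, the Gpx4 change from the 2-cell to the 4-cell stage. Of all genes 3.07%, 3.80%, 2.62% and 1.57% were called in the 4 tests of this kind.

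Over the 10 group means of log2(value + 1), some members had like patterns. Pearson's r was 0.85 between Gpx1 and Gpx4, 0.84 between Cat and Txn1 and 0.82 between Txnrd1 and Hmox1, and it was -0.15 between Prdx1 and Prdx2. These describe 10 points that share libraries and scaling. Among 8201 genes with a mean value of at least 10, the genes most like Hmox1 were Exoc6 (r = 0.92) and Pdia6 (r = 0.87), and those most like Txnrd1 were Glipr1 (r = 0.91) and Bub1b (r = 0.84). For Prdx2 they were Mrpl48 and Dok4 (both r = 0.99). For the others they were Qtrt1 and Meaf6 (Sod1), Atxn10 and Ptgr1 (Sod2), Bmyc and Camk2d (Cat), Banf1 and Tmem88 (Gpx1), Churc1 and Mrpl27 (Gpx4), Ptpn3 and Ap1m2 (Prdx1), and Prrc1 and Fis1 (Txn1), with r between 0.90 and 0.98.

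Around these enzymes, 107 other genes of the same pathways were listed, of which 102 were in the table. Of the 91 tested at the 2-cell stage 6 were called higher and 2 lower in light, together 8.79% of them, near the 10.5% of all genes tested. Their median log2 fold change was -0.023, and that of all genes 0.00025. Among the higher ones were Sesn2, a sestrin, with 327 ± 146 in control and 683 ± 193 in light (log2 fold change 1.15 ± 0.30, adjusted p = 0.0107), Glrx3, an iron-sulfur glutaredoxin, with 43.3 ± 26.2 in control and 186 ± 98.2 in light (log2 fold change 2.06 ± 0.47, adjusted p = 0.00399), and Tfrc, the transferrin receptor, with 381 ± 143 in control and 901 ± 239.6 in light (log2 fold change 1.29 ± 0.27, adjusted p = 0.00193). Taldo1 of the pentose phosphate pathway (1.96 on the log2 scale), the selenoprotein gene Selenos (1.30) and Bach1 (1.53) were also called higher. The lower ones were G6pdx, which supplies NADPH, with 381 ± 117 in control and 187 ± 96.2 in light (log2 fold change -1.11 ± 0.32, adjusted p = 0.0211), and Sesn3 (-1.54). Without 1 library the call was lost in 5 of 13 fits for Sesn3, 3 for G6pdx and 2 for Selenos, and each of the 3 was also lost under 1 of 9 other settings, as was Sesn2. Bach1, which encodes a repressor of Hmox1, had 73.6 ± 44.7 in control and 199 ± 69.2 in light (adjusted p = 0.00866), kept the call under all 9 other settings, and was named here after its value was seen, as were Selenof and Aco1. These 2 sestrin genes moved in opposite directions. Of the 12 tested producers of reactive oxygen species 0 were called by limma, edgeR or DESeq2, and 0 had an unadjusted p under 0.05.

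At the 4-cell and morula stages limma called 0 of 84 and 0 of 80 of these genes, with 8 and 15 at an unadjusted p under 0.05, edgeR called 0 and 1, and DESeq2 called 1 and 3. At the 8-cell stage 6 of 74 were called higher and 3 lower in light, together 12.2% of them, where 9.21% of all genes were called and the median log2 fold changes were 0.30 and 0.16. Higher were Tkt, transketolase, with 17.7 ± 18.7 in control and 140.1 ± 40.4 in light (log2 fold change 3.72 ± 0.56, adjusted p = 0.000177), Prdx6, with 74.2 ± 39.9 in control and 230.2 ± 83.9 in light (log2 fold change 1.71 ± 0.33, adjusted p = 0.00185), the ferritin light chain Ftl1 (1.16 on the log2 scale), glutathione reductase Gsr (2.10), and the selenoprotein genes Selenoh (2.88) and Selenof (2.21). Lower were Cul3, of the ligase that degrades NRF2, with 182 ± 32.9 in control and 53.9 ± 33.4 in light (log2 fold change -1.97 ± 0.43, adjusted p = 0.00455), Prdx4, a peroxiredoxin of the secretory pathway, with 125 ± 25.0 in control and 47.6 ± 20.0 in light (log2 fold change -1.49 ± 0.40, adjusted p = 0.0184), and the oxidase subunit gene Ncf1 (-3.40). Gsr and Ftl1 were lost under 4 of 9 other settings each, Selenof under 3, and Selenoh, Prdx4 and Ncf1 under 1 each. Of the 12 fits without 1 library, Selenof was lost in 3 and Gsr, Selenoh and Prdx4 in 2 each. In blastocysts 6.25% of 80 were called, where 5.34% of all genes were, and the median log2 fold changes were -0.71 and -0.64. Of these 1 was called higher, Selenow, with 64.7 ± 37.9 in control and 192 ± 56.7 in light (log2 fold change 1.75 ± 0.45, adjusted p = 0.0256), and 4 were called lower: Glrx (-1.88 on the log2 scale), Tfrc (-2.10), Me1 (-1.52) and Aco1 (-2.61). The falls of Glrx, Tfrc and Me1 in blastocysts were lost with median ratio scaling and with edgeR, and that of Aco1 with median ratio scaling and with DESeq2. Of the 9 other settings, Me1 was lost under 6, Glrx and Aco1 under 5 each and Tfrc under 4. Without 1 library Selenow was lost in 3 of 9 fits, Tfrc and Aco1 in 2 each and Glrx and Me1 in 1 each, and Selenow was lost with no filter. Tfrc was thus called higher in light at the 2-cell stage, under all 9 other settings too, and lower in blastocysts on the deposited scale.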

How the data were processed

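RNA of single cells from mouse embryos was sequenced by SMART-seq2 in 67 libraries. According to the submitters' processing notes, reads were aligned with HISAT2 to mm9 and counted with HTSeq 0.9.1. The deposited values are a normalized signal per gene made by the authors: the reads of a gene divided by 1 size factor per library, between 0.257 and 3.76. The study's methods name RPKM, but no division by gene length was found in the values. Whole reads came out for 99.97% or more of each library's values (tolerance 0.01), in all except 11 genes, with 0 members among the 11. Total reads lay between 836010 and 8551673, and precision is limited by the 318176 to 2867032 reads outside 2 ribosomal genes. Intervals and limits cover counting error only. The 2 libraries of a group that were closest to each other had a chi-square of at least 7.39 per degree of freedom, so none was counted as a repeat.

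Groups came from the sample titles. The 10 members, the pathway lists and the marker lists were chosen with earlier results of these data known. Genes above a value of 1 in at least 3 libraries of a fit were tested on log2(value + 1) with limma 3.58.1 (trended variance, Benjamini-Hochberg adjustment over all genes tested) in R 4.3.3, within the libraries of each comparison. A fold change on this scale understates the change of low genes. A gene was called when its adjusted p was under 0.05 and it changed at least 2-fold. Alternatives were a pseudocount of 0.1, no filter, a mean value above 5, 3 other scalings, edgeR 4.0.16 and DESeq2 1.42.0 on the recovered reads, 1 fit over all libraries, a replicate block and leaving out each library. Stage comparisons were repeated only with a pseudocount of 0.1, no filter, median ratio scaling, edgeR, the block and each library left out. Permutation tests used scipy 1.17.1, tables pandas 2.3.3 and numpy 2.4.6, and plots matplotlib 3.10.9, under Python 3.11.15.

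Of the pathway genes, the called gene with the smallest adjusted p of each list and direction was named, and for each member the 2 genes most like it over the 10 group means. On simulated counts with 200 genes changed 4-fold, limma called 52.5%, 52%, 45%, 32% and 45.5% of them in the light comparisons from the 2-cell stage (17675 genes) to the blastocyst stage (12144 genes), with 0 in the wrong direction. For the 4 tests of a difference between steps it called 5.5%, 10.5%, 13.5% and 4.5%. The changed genes were drawn from those with a mean value above 10. These shares therefore do not apply to lower genes, such as Cat before the morula stage. Sequences and coordinates are of GRCm38 (GENCODE M21, RefSeq GRCm38.p6) and were not converted to the authors' build. The promoter of Hmox1 and protein sequences were not analysed here.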

Additional observations from a re-analysis of the deposited data

Results flagged for a closer look

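In 11 of 79 groups of 4 to 10 libraries 1 library stood apart from the others of its group. Its gap to the nearest one, on log2(value + 1), was above the 95% critical value of Dixon's test. For normally distributed values chance gives about 1 in 20. Several of these groups have many values at 0, where any other value is flagged, so the 11 cannot be set against that rate. Values are on the deposited scale. At the 2-cell stage light replicate 14 was high for Gpx4, at 354 where the next library was at 135, and for Cat, at 6.70 where the next was at 0.567. Light 2-cell replicate 15 was low for Txnrd1, at 16.7 where the next was at 62.9. At the 4-cell stage control replicate 3 was low for Sod1, at 14.1 with the next at 111, and high for Cat, at 6.46 with the others at 0. Control 4-cell replicate 2 was low for Sod2, at 33.4 with the next at 130.02, and had 0 for Txnrd1, with the next at 21.2. For Cat, light 4-cell replicate 13 was high at 1.47, with the next at 0.353. Among 8-cell libraries, light replicate 11 had 0 for Txn1, with the next at 7.97, and control replicate 4 had 7.09 for Hmox1, with the others at 0. Hmox1 was low in light morula replicate 1, at 1.26, with the next at 53.3.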

How the results depend on the processing

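Hmox1 at the 2-cell stage was called under each of the 9 other scalings, filters and tools, Hmox1 in morulae under all but DESeq2, and Txnrd1 at the 2-cell stage under 6 of 9. For the members and named genes, 990 values under other settings kept their direction and side of the threshold, 72 lost a call, 21 gained one, 84 that were not called changed sign and 1 called value reversed. The causes were not tested. Numbers of genes called moved by over 1.5 times as follows. At the 2-cell stage 1944 became 3043 with 1 fit over all libraries. At the 4-cell stage 218 became 136 with a pseudocount of 0.1, 53 with no filter, and 742 both with DESeq2 and with 1 fit over all libraries. In morulae 179 became 281 with median ratio scaling, 323 with quantile normalization, 395 with DESeq2 and 981 with 1 fit. In blastocysts 680 became 286 with a pseudocount of 0.1, 264 with no filter, 279 with median ratio scaling, 151 with edgeR, 240 with CPM, 235 with quantile normalization, 450 with DESeq2 and 442 with 1 fit. From the 4-cell to the 8-cell stage in control the count became 421 with no filter, 278 with median ratio scaling and 187 with edgeR, and in light 385 and 247 with the last 2. From morula to blastocyst in control edgeR gave 1138. The tests of a difference between steps gave 407 with a pseudocount of 0.1 and 1097 with edgeR from 2-cell to 4-cell, and 152 with a pseudocount of 0.1 from morula to blastocyst.

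Leaving out each library gave 1321 to 2199 genes in the light comparison of 2-cell embryos, 65 to 771 for the 4-cell, 999 to 1347 for the 8-cell, 82 to 240 for the morula and 89 to 950 for the blastocyst comparison. The 771 came without control 4-cell replicate 3, the 65 without control 4-cell replicate 5, the 82 without light morula replicate 12 and the 89 without control blastocyst replicate 2. Counts at the 4-cell stage also moved by over 1.5 times without control replicate 4 or any light library, in morulae without light replicate 3, 5, 6 or 9, and in blastocysts without control replicate 1 or light replicate 24, 26 or 29. In the control steps the ranges were 7420 to 8098, 340 to 1114 (lowest without 8-cell replicate 3, and also moved without 8-cell replicate 4 or 4-cell replicate 4, 5 or 6), 1396 to 2199 (lowest without 8-cell replicate 2) and 865 to 1837 (moved without any 1 blastocyst library). In the light steps they were 5860 to 6495, 1253 to 1696, 1379 to 1741 and 2213 to 3013. For the differences between steps they were 314 to 965, 491 to 971, 361 to 534 and 156 to 317. Both of the first highest counts came without control 4-cell replicate 3 and the last lowest without control blastocyst replicate 2, and the first also moved without control 2-cell replicate 9 or light 2-cell replicate 10, 12 or 14.

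The titles give groups shared replicate numbers, but deviations of same-numbered libraries, over all genes tested, correlated only between -0.087 and 0.069. The main fits did not pair the libraries by number, and whether same-numbered libraries share a litter or a day was not tested. With a replicate block over the shared numbers 0 genes were called in the light comparisons at the 2-cell, 4-cell and morula stages, 0 from 8-cell to morula and from morula to blastocyst in control and from 2-cell to 4-cell in light, 106 and 161 from 4-cell to 8-cell in control and light, and 315 from 8-cell to morula in light. Only libraries whose number occurs in both groups inform the block fit, so these counts rest on part of the libraries. Under the block, Hmox1 from the 2-cell to the 4-cell stage in light was 0.11 (limma adjusted p = 0.962), opposite in sign to the fit without it. That value came from light replicates 9 and 14 alone, which are too few to show a change of direction. Differences of a few reads were not detectable at this depth.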
